A study of Mus musculus with 18 samples.

Results

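The genes described here encode the parts of the interferon receptor pathway: the interferon gamma receptor chains Ifngr1 and Ifngr2, the type I interferon receptor chains Ifnar1 and Ifnar2, the Janus kinases Jak1 and Jak2, and the transcription factors Stat2, Irf1 and Irf9. They were chosen by symbol from the count table, 9 of its 24781 gene entries. The libraries were made from ILC2 (group 2 innate lymphoid cells), which carry no rearranged antigen receptor and secrete type 2 cytokines. The 18 libraries form 6 groups of 3: mature ILC2 and immature ILC2 (ILC2P) sorted from bone marrow, and ILC2 sorted from lung, each from control mice and from mice without CD45. The genotype labels give Rag2 KO for the control mice, which their titles call WT, and CD45 KO x Rag2 KO for the others, so every mouse lacked T and B cells. CD45, the product of Ptprc, is a receptor tyrosine phosphatase best known for acting on Src-family kinases. The age and sex of the mice, the sorting gates, the part of Ptprc that was deleted and whether a library came from 1 animal are not stated in the labels. The p-values below therefore measure only the spread between these libraries, which may in part be technical.

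Interferon gamma binds a receptor made of Ifngr1, the ligand-binding chain, and Ifngr2, the signalling chain, which carry JAK1 and JAK2. The kinases phosphorylate a STAT factor, whose dimers bind GAS elements in promoters such as that of Irf1. Type I interferons bind Ifnar1 and Ifnar2, which carry TYK2 and JAK1, and signal through a complex with STAT2 and IRF9 that binds ISRE elements. In ILC2, interferon gamma and type I interferons are known to restrain proliferation and type 2 cytokine output.

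Both kinds of element were searched for in the promoters, because Irf1 and Stat2 are at once parts of the pathway and known targets of it, while Ifngr1 is its ligand-binding chain. All 9 genes matched RefSeq promoter windows of build GRCm38.p6, 11 windows in all, each of 300 bases with 250 of them before the start of the transcript. The GAS letters TTCNNNGAA, the same on both strands, stood in 3 of the 11 windows, those of Ifnar2 and Ifnar1 and 1 of Irf1, and in 8.3% of all 32851 windows. The ISRE letters, GAAA and again GAAA with any 2 bases between them, on either strand, stood in 1 of the 11, that of Stat2, and in 3.44% of all windows, and no window of these 9 genes held both. The 250 bases before the start are printed 5′ to 3′ on the gene's own strand, in all 3 cases the plus strand. Capitals mark the GAS letters of Irf1, first base at position -90 from the start, and the ISRE letters of Stat2, first base at position -222 and read on the opposite strand. The printed stretches are chr11:53769764-53770013 for Irf1, chr10:128270248-128270497 for Stat2 and chr10:19591699-19591948 for Ifngr1, in which no letters of either element were found.
Irf1: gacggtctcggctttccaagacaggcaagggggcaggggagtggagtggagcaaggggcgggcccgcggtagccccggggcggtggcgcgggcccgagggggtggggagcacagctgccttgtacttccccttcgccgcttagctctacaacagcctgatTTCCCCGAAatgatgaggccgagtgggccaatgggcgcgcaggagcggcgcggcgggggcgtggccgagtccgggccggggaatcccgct
Stat2: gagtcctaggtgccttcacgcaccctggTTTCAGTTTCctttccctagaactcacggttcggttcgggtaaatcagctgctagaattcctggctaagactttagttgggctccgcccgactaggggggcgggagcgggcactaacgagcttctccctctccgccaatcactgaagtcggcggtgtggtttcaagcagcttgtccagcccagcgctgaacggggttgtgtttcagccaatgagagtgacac
Ifngr1: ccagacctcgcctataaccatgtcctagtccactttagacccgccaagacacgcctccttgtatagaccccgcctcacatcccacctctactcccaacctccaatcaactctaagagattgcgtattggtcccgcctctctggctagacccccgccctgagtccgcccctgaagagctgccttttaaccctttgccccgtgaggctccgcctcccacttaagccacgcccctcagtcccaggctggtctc
A match describes these letters only, and no binding was measured.

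The libraries were shallow, with 68077 to 122250 counts and 7189 to 8793 genes detected in each. Levels are given as CPM, the counts per 1000000 counts of a library's scaled size, so that 1 count was worth 8.42 to 14.9 CPM and 3 counts, taken as the detection floor, 25.3 to 44.7 CPM. Ptprc was lower in CD45 KO in mature (log2 fold change -1.68 ± 0.29, standard error), immature (-2.01 ± 0.31) and lung ILC2 (-1.86 ± 0.27; adjusted p = 0.00015, 7.9e-06 and 6.28e-07 with edgeR's quasi-likelihood test). The library labelled mature CD45 KO replicate 1 had 238 CPM of Ptprc, close to the 253 to 541 CPM of mature control, and Ptprc missed the threshold when only the mature libraries were fitted (adjusted p = 0.0664). All 12 ILC2 markers had counts in every group, with a summed level of 6240 to 8690 CPM per library in marrow and 11200 to 13500 CPM in lung. The summed myeloid markers reached 2120 CPM in 1 mature control library, replicate 1, where Lyz2, Csf1r, Itgam, Cd14 and Adgre1 were at 0, and at most 139 CPM in any library of the other 5 groups. Without mature CD45 KO replicate 1 alone, the log2 fold change of Ptprc in mature was -2.16. The part of these 2 mature libraries in the results was checked by leaving both out, with the outcome given below for some results.

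Of the 9 genes, 5 passed the filter on low counts and were tested among 1916 genes: Ifngr1, Ifngr2, Jak1, Jak2 and Irf1. The threshold was 0.05 on the p of edgeR's quasi-likelihood test after Benjamini-Hochberg adjustment over all 1916, and log2 fold changes are given with their standard errors. The filter asked for the level of about 10 counts in at least 3 libraries. Ifngr2, with 12 counts at most, reached that level in the lung alone and Irf1 in the marrow alone, so their tissue differences were partly set by the filter, while Ifngr1, Jak1 and Jak2 reached it in both tissues. Ifnar1, Ifnar2, Stat2 and Irf9, with 16 counts at most in a library, did not pass. Their fold changes come from a fit without the filter on the same scaling, with p adjusted over all genes in it.

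**Figure D1:**
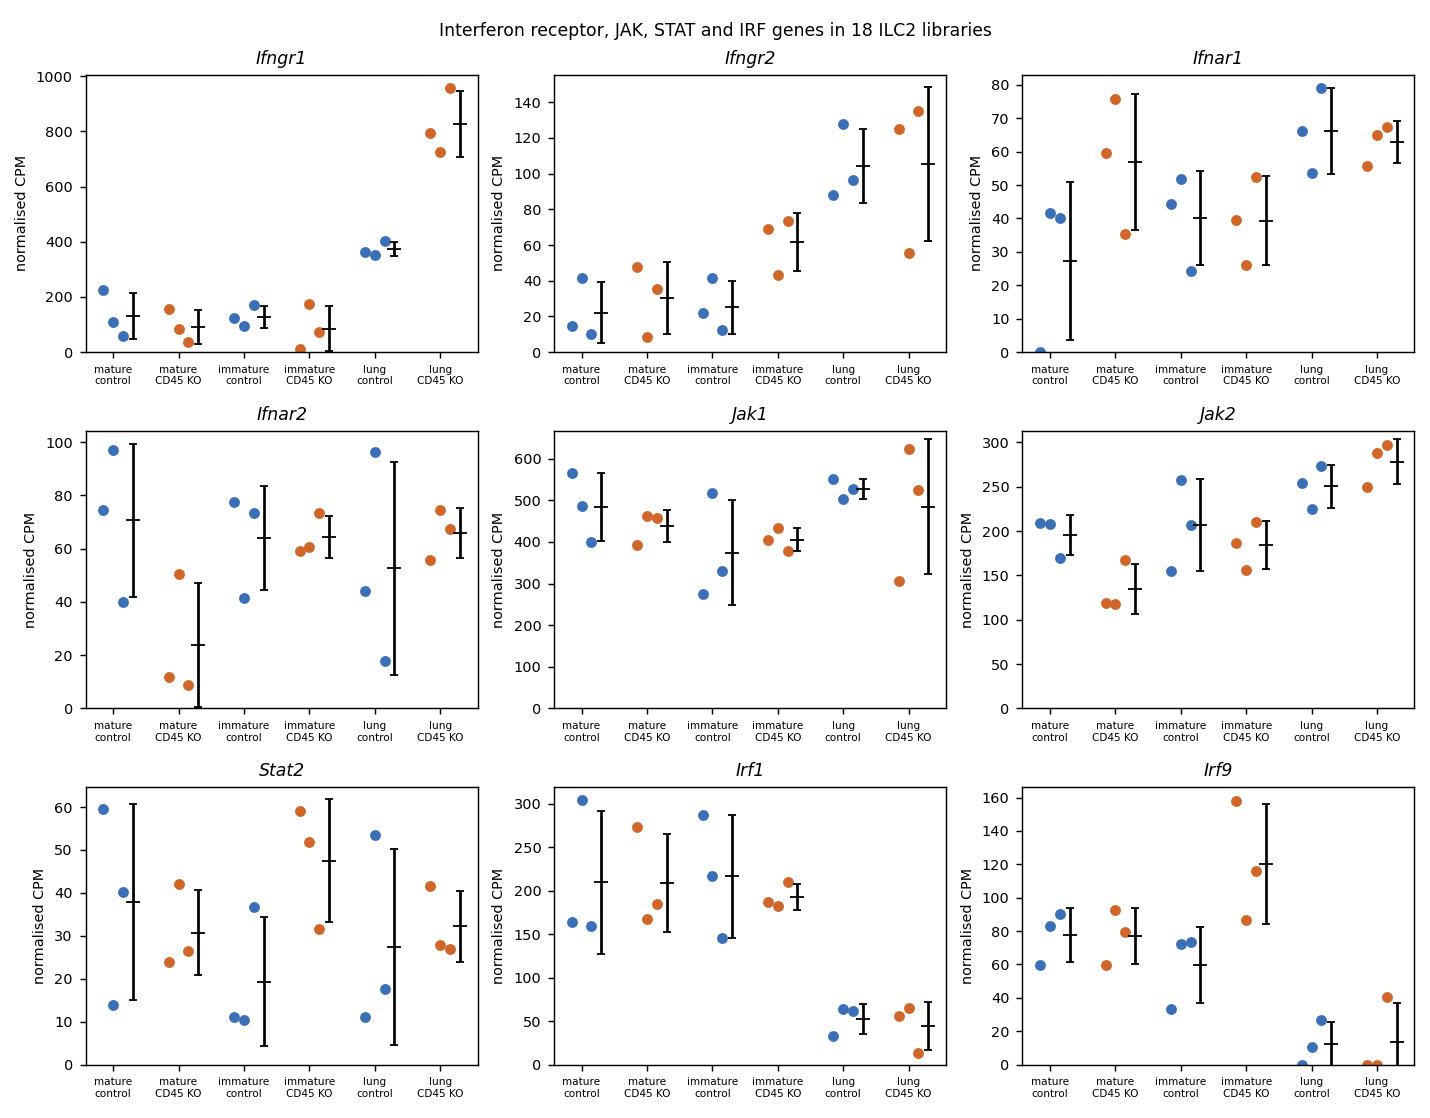
Normalised CPM (vertical axes, linear and different for each gene) of the 9 genes in 18 libraries, with blue points for control, orange points for CD45 KO and black bars for the group mean and SD of 3 libraries, cut at 0. Ifngr1 lies between 353 and 404 CPM in lung control and between 726 and 958 CPM in lung CD45 KO, above all marrow libraries, while Irf1 and Irf9 are lowest in lung.

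Ifngr1, the ligand-binding chain of the interferon gamma receptor, showed the only CD45 difference that passed among the 5 tested genes. The gene lies on chromosome 10, 19591949 to 19610229, on the plus strand (GRCm38, GENCODE M21). In lung control ILC2 its 3 libraries had 364, 353 and 404 CPM (33, 33 and 46 counts). In lung CD45 KO ILC2 they had 793, 726 and 958 CPM (57, 78 and 71 counts). Every CD45 KO library lay above every control library of the lung, as for 12.3% of all genes tested. The mean rose from 374 ± 27.2 to 826 ± 120 CPM (SD, n = 3), a 2.17-fold increase (log2 1.12 ± 0.22, 95% interval 0.68 to 1.56, edgeR adjusted p = 0.000612). Of all genes tested, 2.51% passed in this comparison, 2.04% as higher. The call held with each of the 6 lung libraries left out in turn (1.03 to 1.22). The Wald test of DESeq2 gave 1.17 ± 0.55 with an unadjusted p = 0.0338, and its own filter on low means gave Ifngr1 no adjusted p.

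In marrow the Ifngr1 values were lower and scattered. Mature control libraries had 224, 111 and 60.2 CPM and mature CD45 KO libraries 155, 84.2 and 35.2 CPM. Immature control libraries had 122, 93.0 and 171 CPM and immature CD45 KO libraries 9.86, 173 and 73.5 CPM. CD45 KO and control libraries overlapped at both stages. The fold change of CD45 KO against control was -0.50 ± 0.44 in mature, -0.50 ± 0.42 in immature and -0.50 ± 0.31 in the average of the 2 marrow stages (95% interval -1.11 to 0.11, edgeR adjusted p = 0.797, 0.677 and 0.45), and did not pass. Of all genes tested, 0.261% passed in mature, 1.67% in immature and 2.97% in the marrow average. The immature value rested on few counts: it was -1.61 without CD45 KO replicate 2, which had 20 counts, and 0.02 without CD45 KO replicate 1, which had 1 count.

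The CD45 effect on Ifngr1 in lung was then set against that in marrow within the same fit. It was higher in lung by 1.62 ± 0.38 on the log2 scale (95% interval 0.86 to 2.38, edgeR adjusted p = 0.0124), in a comparison where 1.25% of all genes tested passed. Leaving out 1 library at a time kept the call in 17 of 18 cases (1.36 to 2.19). The exception was mature control replicate 1, without which the difference was 1.36 and the adjusted p = 0.087. Without that library and mature CD45 KO replicate 1 together it was 1.60 (adjusted p = 0.0226). DESeq2 gave 1.71 ± 0.72 with an unadjusted p = 0.017 and no adjusted p. The CD45 effects in mature and immature ILC2 differed by -0.01 ± 0.59 (95% interval -1.19 to 1.17), an interval too wide to tell whether they were alike.

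**Figure D2:**
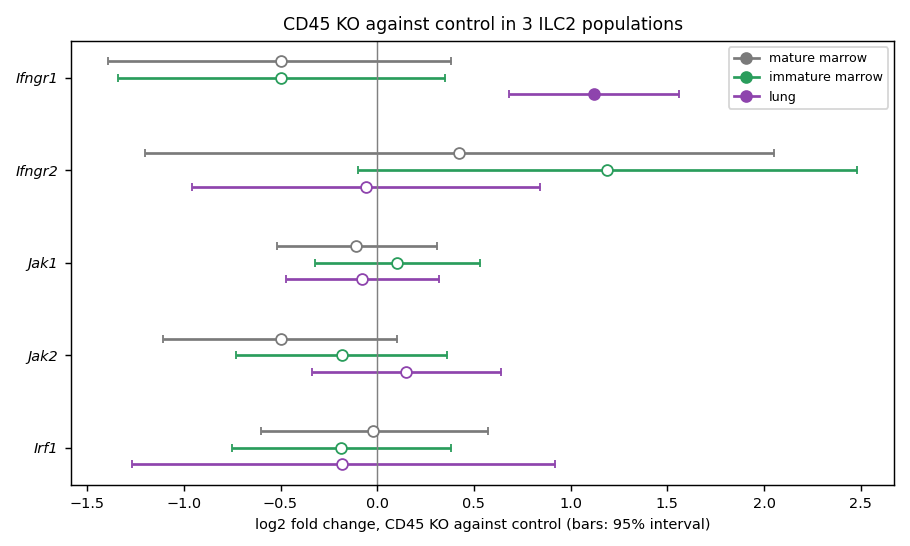
Log2 fold change of CD45 KO against control (horizontal axis) with its 95% interval for the 5 tested genes in mature marrow (grey), immature marrow (green) and lung ILC2 (purple), with filled points where the adjusted p was under 0.05. The single filled point is Ifngr1 in lung, at 1.12.

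The same gene separated the tissues in both genotypes. Control ILC2 of the lung had 3-fold more Ifngr1 than the marrow average (log2 1.58 ± 0.27, adjusted p = 9.05e-07), with 353 CPM as the lowest lung library and 224 CPM as the highest of 6 marrow libraries. In CD45 KO ILC2 the fold was 9.22 (log2 3.20 ± 0.24, adjusted p = 5.52e-21), with 726 CPM as the lowest lung library and 173 CPM as the highest of 6 marrow libraries. Many genes differed between the tissues: 31.1% of those tested passed in control, 17.6% as higher in lung and 13.4% as lower, and 28.1% in CD45 KO, 16.6% as higher and 11.4% as lower. Lung and marrow libraries did not overlap for 27.3% of genes in control and 26.9% in CD45 KO. Over the 6 groups the order was lung CD45 KO, lung control, and then the 4 marrow groups at 132 to 85.5 CPM, whose libraries overlapped. In these sorted pools, fewer cells with the transcript and less transcript per cell cannot be told apart.

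Ifngr2, the signalling chain, differed between tissues but showed no CD45 difference in lung. Its gene lies on chromosome 16, 91547072 to 91565623, near Ifnar2 and Ifnar1. Lung control libraries had 88.2, 128 and 96.7 CPM and lung CD45 KO libraries 125, 55.8 and 135 CPM, and the fold change between them was -0.06 ± 0.45 (95% interval -0.96 to 0.84). The CD45 KO values lay on both sides of the control values. The 6 marrow control libraries ran from 10 to 41.6 CPM (median 18.5), all below the lung control libraries, as for 16% of genes tested. The difference was 2.09 ± 0.50 (adjusted p = 0.000537), partly set by the filter, whose level Ifngr2 reached in the lung alone. In CD45 KO the 6 marrow libraries ran from 8.42 to 73.5 CPM (median 45.5) and overlapped with lung. That tissue difference passed narrowly (1.23 ± 0.46, adjusted p = 0.0356), and not without mature CD45 KO replicate 2 (0.111), immature CD45 KO replicate 2 (0.0755), lung CD45 KO replicate 1 (0.142) or lung CD45 KO replicate 3 (0.19). It also missed without the filter on low counts (0.0761) and with DESeq2 (0.0713).

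In immature marrow Ifngr2 stood higher in every CD45 KO library than in any control library. Control libraries had 22.1, 41.4 and 12.2 CPM (2, 4 and 1 counts) and CD45 KO libraries 69.0, 43.3 and 73.5 CPM (7, 5 and 7 counts). The difference of 1.19 ± 0.65 had an adjusted p = 0.456 and did not pass. Libraries of the 2 genotypes did not overlap for 17.9% of all genes tested here, and for 9.39% with CD45 KO higher, so this separation was common. In mature marrow the difference was 0.42 ± 0.82 and the libraries overlapped.

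Ifnar1 and Ifnar2, the chains of the type I interferon receptor, were near the detection floor in every group. Ifnar1 (chromosome 16, 91485238 to 91507441) had 0 to 9 counts in a library, with a group mean between 27.2 and 66.2 CPM. Its lung control libraries had 66.1, 53.5 and 79.1 CPM and the 6 marrow control libraries 0 to 51.7 CPM (median 40.9). The lung libraries were thus higher without overlap, as were those of 16% of the genes tested. The difference, 0.93 ± 0.50 in the fit without the filter, had an adjusted p = 0.382. In CD45 KO it was 0.42 ± 0.48 and the libraries overlapped.

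Ifnar2 (chromosome 16, 91372783 to 91405589) had 1 to 9 counts in a library. Its lowest group was mature CD45 KO, with 11.9, 50.5 and 8.80 CPM against 74.5, 97.2 and 40.1 CPM in mature control. The groups overlapped, and the difference of -1.37 ± 0.62 had an unadjusted p = 0.0276 and an adjusted p = 0.978. The means of the other 5 groups lay between 52.6 and 70.6 CPM, with overlapping libraries. Lung differed from the marrow average by -0.36 ± 0.47 in control and 0.71 ± 0.49 in CD45 KO, neither of which passed.

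Jak1, the kinase shared by both receptors, had group means of 374 to 527 CPM, with libraries that overlapped along the whole order of groups. It lies on chromosome 4, 101152367 to 101265282, on the minus strand. Mature control libraries had 566, 486 and 401 CPM and mature CD45 KO libraries 393, 463 and 458 CPM. Immature control libraries had 276, 517 and 330 CPM and immature CD45 KO libraries 404, 433 and 378 CPM. Lung control libraries had 551, 503 and 528 CPM and lung CD45 KO libraries 306, 623 and 526 CPM. The lung CD45 KO group had the widest range, from 22 to 67 counts.

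No Jak1 comparison passed. CD45 KO differed from control by -0.11 ± 0.21 in mature (95% interval -0.52 to 0.31), 0.10 ± 0.22 in immature (-0.32 to 0.53) and -0.08 ± 0.20 in lung (-0.47 to 0.32). Lung differed from the marrow average by 0.31 ± 0.17 in control (adjusted p = 0.176) and 0.24 ± 0.18 in CD45 KO (0.36). The control difference passed only when immature control replicate 2, at 517 CPM, was left out (0.48, adjusted p = 0.0393).

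Jak2, the kinase carried by Ifngr2, was higher in lung than in marrow among CD45 KO ILC2. Its gene lies on chromosome 19, 29251828 to 29313080. Lung CD45 KO libraries had 250, 288 and 297 CPM and the 6 marrow CD45 KO libraries 118 to 210 CPM (median 161). They did not overlap, as for 26.9% of genes tested in either direction. The difference was 0.82 ± 0.23 (1.77-fold, adjusted p = 0.00335) and passed under every alternative and with each library left out (0.78 to 0.93). In control, lung libraries had 254, 225 and 273 CPM and marrow libraries 155 to 258 CPM (median 208), which overlapped, and the difference of 0.33 ± 0.23 did not pass (adjusted p = 0.286). The difference between these tissue contrasts, which equals the lung CD45 effect minus the marrow one, was 0.50 ± 0.32 with an adjusted p = 0.565. A tissue difference that depends on CD45 was therefore not shown.

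In mature marrow all 3 Jak2 values were lower in CD45 KO than in control. They were 119, 118 and 167 CPM against 209, 208 and 170 CPM. The difference was -0.50 ± 0.30 (95% interval -1.11 to 0.10, adjusted p = 0.658), and libraries were lower without overlap for 6.21% of the genes tested. In immature marrow (-0.18 ± 0.27) and lung (0.15 ± 0.25) the libraries overlapped.

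Irf1, a transcription factor that interferon gamma induces, ran opposite to Ifngr1 between the tissues. It lies on chromosome 11, 53770014 to 53778374, and its promoter is the one printed above with a GAS match. Lung control libraries had 33.1, 64.2 and 61.6 CPM against 146 to 305 CPM (median 191) in the 6 marrow control libraries. Lung CD45 KO libraries had 55.6, 65.1 and 13.5 CPM against 168 to 274 CPM (median 186) in the 6 marrow CD45 KO libraries. No lung library reached the lowest marrow library, and the tissues did not overlap for 27.3% of genes tested in control and 26.9% in CD45 KO. Irf1 was lower in lung by 3.88-fold in control (log2 -1.96 ± 0.34, adjusted p = 2.11e-06) and by 4.10-fold in CD45 KO (-2.03 ± 0.37, adjusted p = 4.45e-06). Both calls held under every alternative and with each library left out. Irf1 reached the filter's level in the marrow alone, so both differences were partly set by the filter. Without the 2 mature libraries set out above, all 7 tissue differences that passed among these genes (Ifngr1, Ifngr2 and Irf1 in both genotypes, Jak2 in CD45 KO) kept their direction and call. For Ifngr2 and Irf1 that does not address the part set by the filter.

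No CD45 difference of Irf1 passed. CD45 KO differed from control by -0.02 ± 0.29 in mature (95% interval -0.60 to 0.57), -0.19 ± 0.28 in immature (-0.75 to 0.38) and -0.18 ± 0.55 in lung (-1.27 to 0.92). Marrow means were 210 ± 82.7 CPM in mature control, 209 ± 56.8 CPM in mature CD45 KO, 217 ± 70.5 CPM in immature control and 193 ± 15 CPM in immature CD45 KO (SD, n = 3). Each lung library held only 1 to 7 counts of Irf1.

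**Figure D3:**
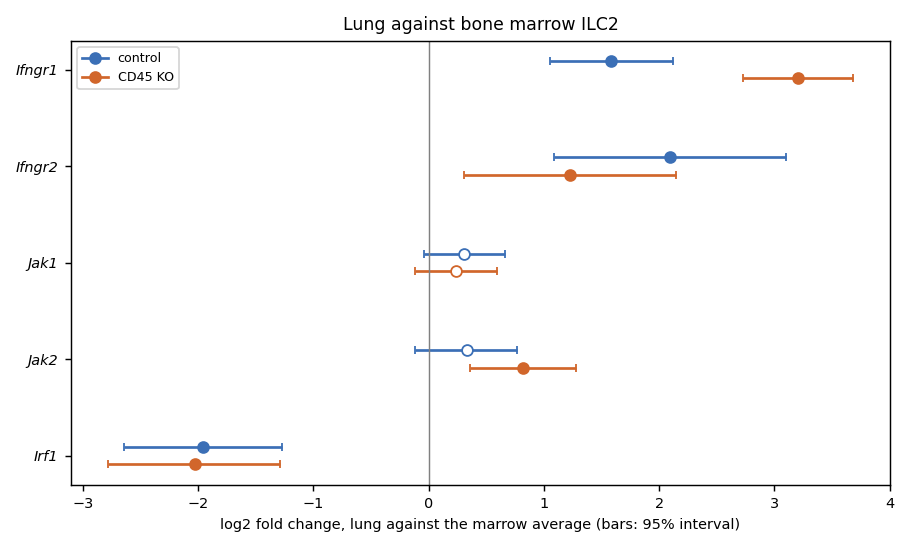
Log2 fold change of lung against the average of mature and immature marrow ILC2 (horizontal axis) with its 95% interval for the 5 tested genes, in control (blue) and CD45 KO (orange), with filled points where the adjusted p was under 0.05. Ifngr1 and Ifngr2 lie above 0 and Irf1 below 0 in both genotypes, and Jak2 passes in CD45 KO.

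Irf9, the DNA-binding subunit of the complex that type I interferons activate, was also low in lung. It lies on chromosome 14, 55603571 to 55610030. Its 3 lung control libraries had 0, 1 and 3 counts and its 3 lung CD45 KO libraries 0, 0 and 3. Marrow control libraries had 3 to 9 counts (33.2 to 90.2 CPM) and marrow CD45 KO libraries 5 to 16 counts (59.6 to 158 CPM). In CPM, all lung libraries lay below all marrow libraries of their genotype. The tissues did not overlap, in either direction, for 27.3% of genes tested in control and 26.9% in CD45 KO. The ratio of lung to marrow from summed counts was 0.195 in control (95% exact binomial interval 0.0504 to 0.546, counting error only) and 0.12 in CD45 KO (0.024 to 0.366). In the fit without the filter the log2 fold change of lung against marrow was -2.25 ± 0.63 in control (adjusted p = 0.00933) and -2.89 ± 0.63 in CD45 KO (adjusted p = 0.000166).

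Immature marrow gave the highest Irf9 values, in CD45 KO. These libraries had 158, 86.5 and 116 CPM against 33.2, 72.4 and 73.2 CPM in immature control, without overlap. The difference of 0.98 ± 0.45 had an unadjusted p = 0.0284 and an adjusted p = 0.879, and libraries were higher without overlap for 9.39% of the genes tested. In mature marrow the difference was -0.01 ± 0.47.

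Stat2, the partner of IRF9 in that complex, was close to the floor throughout, with 1 to 6 counts in a library. It lies on chromosome 10, 128270559 to 128292849, and its promoter is the one printed above with an ISRE match. Immature CD45 KO libraries had 59.1, 51.9 and 31.5 CPM against 11.1, 10.3 and 36.6 CPM in immature control, which overlapped (1.31 ± 0.72, adjusted p = 0.915). Neither tissue difference passed, at 0.02 ± 0.53 in control and -0.29 ± 0.60 in CD45 KO.

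No difference between mature and immature control ILC2 was shown for the 5 tested genes, in a comparison where 0.0522% of all genes passed. The log2 fold changes ran from -0.29 for Ifngr2 (95% interval -2 to 1.42) to 0.33 for Jak1 (-0.11 to 0.77). Among CD45 KO comparisons, 0 of the 5 genes passed in mature, 0 in immature, 1 in lung and 0 in the marrow average. At an unadjusted p under 0.05 none of the 5 passed in mature, immature or the marrow average either. With DESeq2 none passed there after adjustment, but it gave Ifngr2 no adjusted p in immature and the marrow average.

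The genes whose log2 CPM most resembled each tested gene over the 18 libraries are given as a description, since all of them share these libraries and the split between lung and marrow. Cytip was among those of Ifngr1 (Pearson r = 0.90), and Tagln2 (0.83) and Zfand6 (0.82) were those of Ifngr2. For Jak1 they were Adgre5 (0.79) and Grb2 (0.75), and for Jak2 Serpinb1a (0.88) and Zrsr1 (0.87). Irf1 was most like 2810474O19Rik (0.93) and Txnip (0.92).

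The rest of the pathway was read from lists of its ligands, other receptor chains, other JAK, STAT and IRF members, inhibitors and known interferon-induced genes. None of the 10 interferon genes listed, Ifng among them, had a count in any of the 18 libraries. That is 0 of 1690438 counts, which allows a mean level over all 18 libraries of up to 1.78 CPM for each, counting error only. The limit for a single group, with fewer counts, is higher. Of the other receptor chains Ifnlr1 was at 0 in all libraries and Il10rb was too low to test, as were both other kinases, Jak3 and Tyk2.

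Of 5 STAT genes listed beside Stat2, 3 were tested: Stat3, which carries signals of the IL-6 family, Stat4, which acts downstream of IL-12, and Stat6, which acts downstream of IL-4 and IL-13. None of the 3 passed in any of the 9 comparisons with edgeR or with DESeq2's Wald test. DESeq2's filter on low means limits this for CD45 KO against control in lung and for the lung minus marrow effect. There it gave no adjusted p even to Jak2, with 348 counts in all against at most 263 for a STAT gene listed here. Only 1 of these edgeR results had an unadjusted p under 0.05, that of Stat4 between immature CD45 KO and control, with a log2 fold change of -1.15 ± 0.50 (unadjusted p = 0.0239, adjusted p = 0.291). Against marrow, lung Stat4 had a log2 fold change of -0.38 ± 0.43 in control and 0.78 ± 0.42 in CD45 KO.

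Among the 7 other IRF genes only Irf2, a factor that competes with Irf1 for the same sites, could be tested. In lung CD45 KO its mean was 77.9 CPM against 179 CPM in lung control, without overlap, as for 7.41% of genes tested, and the difference of -1.23 ± 0.39 did not pass (adjusted p = 0.0758). Against marrow it was lower in CD45 KO lung (-0.94 ± 0.36, adjusted p = 0.0428), a call that 1 of 8 alternatives and 3 of 9 fits with a library left out kept. Of 12 inhibitors 3 were tested, and Socs1, which blocks JAK kinases and is itself induced by interferon, was lower in lung. It reached the filter's level in the marrow alone. Lung control libraries had 44.1, 21.4 and 52.8 CPM and lung CD45 KO libraries 55.6, 140 and 121 CPM, against group means of 270 to 346 CPM in marrow. The lung deficit was 6.66-fold in control (-2.73 ± 0.34, adjusted p = 7.97e-11) and 2.94-fold in CD45 KO (-1.56 ± 0.27, adjusted p = 9.40e-07). In lung the CD45 KO libraries of Socs1 were all above control, as for 12.3% of genes tested. The difference of 1.42 ± 0.46 did not pass (adjusted p = 0.0861).

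**Figure D4:**
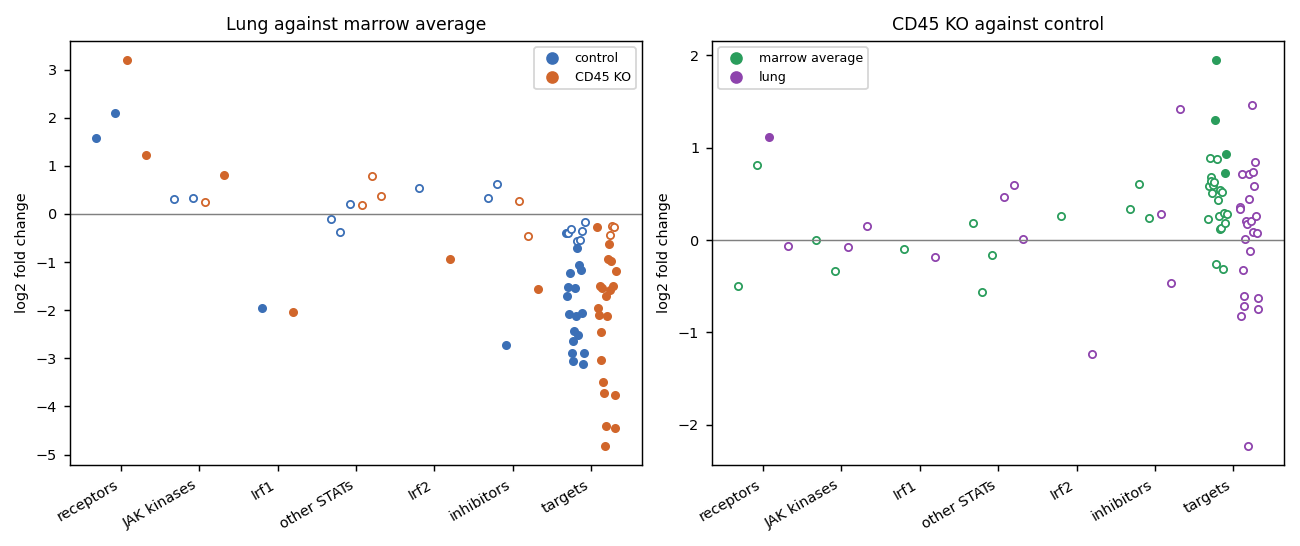
Log2 fold changes (vertical axes) of the tested genes of these lists by role, 1 point a gene, with filled points where the adjusted p was under 0.05. The left panel sets lung against the marrow average in control (blue) and CD45 KO (orange), where the tested targets lie below 0, and the right panel sets CD45 KO against control in the marrow average (green) and lung (purple).

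Of 57 interferon-induced genes listed 24 were tested, and 7 of these reached the filter's level in each tissue by itself. Of the 7, 5 were lower in lung than in marrow in control, where 13.4% of all genes tested were lower. In CD45 KO 4 were lower, where 11.4% of all genes were, and 0 were higher in either genotype. The share lower among all genes that reached the level in each tissue was not determined. The examples from the 7 were chosen after their values were seen. Psmb8, a subunit of the immunoproteasome, was among the lower ones in both genotypes (-0.71 ± 0.21 in control and -0.63 ± 0.21 in CD45 KO). B2m, the light chain of MHC class I, was lower by less (-0.40 ± 0.11 and -0.28 ± 0.11). Tapbp, which loads peptides onto MHC class I, did not pass (-0.36 ± 0.21 and -0.28 ± 0.20). The 5 calls in control held with each library left out and with DESeq2's Wald test, while 3 were left without the filter. In CD45 KO only Gbp7 passed without the filter, with DESeq2's Wald test, without mature CD45 KO replicate 3 or without lung CD45 KO replicate 3, and 2 genes passed without lung CD45 KO replicate 2.

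The other 17 reached the filter's level in the marrow alone, so that their being lower in lung was partly set by the filter. Over all 24, 18 were lower in control lung and 6 did not pass (median -1.53 against -0.03 over all genes tested, 13.4% of which were lower). In CD45 KO 21 were lower and 3 did not pass (median -1.65 against -0.03 over all genes, 11.4% of which were lower). Without those 2 mature libraries the counts were 19 and 23 of 26 tested. Among the 33 genes too low to test, the mean level in lung was below that in marrow for 26 in control and 28 in CD45 KO and above it for 4 and 2, and in each genotype 3 were at 0 in both tissues. The chemokine gene Cxcl10 was one of those above, at 34.5 CPM in lung and 3.70 CPM in marrow among controls and at 65.7 and 12.4 CPM in CD45 KO. These means rest on few counts. Lung control had 10 in all, 7 of them in 1 library (11 to 74.9 CPM), and lung CD45 KO 16. Each control marrow group had 1.

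The GTPase gene Ifi47, which reached the filter's level in the marrow alone, had group means of 170 to 304 CPM in marrow and 23.2 and 24.2 CPM in lung (-2.88 ± 0.42 in control and -3.50 ± 0.40 in CD45 KO). Tap1, which moves peptides for antigen presentation and also reached it in the marrow alone, was at 161 CPM over marrow and 38.5 CPM in lung among controls (-2.06 ± 0.40, adjusted p = 1.64e-05). Gbp7, a guanylate-binding protein gene that reached it in both tissues, had a log2 fold change of -2.46 ± 0.29 in CD45 KO (adjusted p = 1.52e-11). Tgtp1 and Tgtp2, near-identical GTPase genes whose counts cannot be told apart with certainty, reached it in the marrow alone and had log2 fold changes of -3.11 ± 0.36 and -2.88 ± 0.32 in control and -3.77 ± 0.34 and -4.45 ± 0.33 in CD45 KO.

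Without CD45, 4 genes of this list rose in immature marrow. In immature ILC2 4 of 24 were higher, 0 were lower and 20 did not pass, with fold changes above 0 for 22 and a median of 0.52 against -0.01 over all genes, of which 1.1% passed as higher. The 4 were Iigp1 (37.8 ± 28.0 to 211 ± 78.7 CPM), Igtp (86.1 ± 12.8 to 277 ± 25.4 CPM), Tgtp2 and Tgtp1, all immunity-related GTPase genes. Iigp1, Igtp and 5 others of the 24 reached the filter's level in 3 or more CD45 KO libraries but in fewer than 3 control libraries, so the counts higher and the medians were partly set by the filter. Tgtp1 lost its call without any 1 of the 3 immature control libraries, immature CD45 KO replicate 2 or immature CD45 KO replicate 3 (highest adjusted p = 0.136). DESeq2 called 2 of the 24, Igtp and Tgtp2, and gave 7 no adjusted p. In mature ILC2 0 of 24 passed with edgeR or DESeq2 (median 0.50 against 0 over all genes), and 8 had an edgeR p under 0.05 before adjustment. The share of all tested genes under that unadjusted level was not determined, so such counts, here and below, have no baseline. Without those 2 libraries 2 of 26 passed, in a fit where 7 genes passed in all.

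Over the marrow average 4 of 24 were higher (median 0.53), in a comparison where 1.46% of all genes tested were higher. The count was 8 of 26 without the same 2 libraries and 7 of 26 without mature CD45 KO replicate 1 alone. It was 7 of 25 without the abundant ribosomal entries Rn45s and Rn4.5s. Calls over all genes rose as well. Those higher were 28 in the main fit, 51 without the 2 libraries and 34 without the ribosomal entries. In either direction they went from 57 to 91 without mature CD45 KO replicate 1. In lung 0 of 24 passed (median 0.19 against 0.01), 3 had an edgeR p under 0.05 before adjustment, DESeq2 called B2m as higher and gave 19 no adjusted p, and 1 of 26 passed without lung CD45 KO replicate 3. The CD45 effect in lung minus that in marrow passed for 0 of 24 with edgeR, with 6 before adjustment (median -0.40), and DESeq2 gave 23 of the 24 no adjusted p, so a difference of the list between the tissues was not shown gene by gene. In CD45 KO marrow the summed T cell markers of a library reached 26.4 CPM and those of NK cells and ILC1 9.86 CPM. Those of macrophages, monocytes and neutrophils reached 47.7 CPM there, against 2120 CPM in 1 mature control library. Of these lists Cd3d, Cd3g, Prf1, C1qa, S100a8 and S100a9 had counts in CD45 KO marrow, while Ncr1, Cd4, Cd8a, Csf1r and Adgre1 had none. The part of other cells in these results was not tested.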

How the data were processed

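The 9 genes and the gene and marker lists were chosen with earlier results of these data known. The authors deposited whole-number counts per gene symbol for 18 libraries, with no scaling between libraries, as their unequal totals show. Per the labels' protocols, RNA was copied with an oligo-dT primer that carries a molecular barcode, and ERCC RNA was added; 200 cells were sorted according to one protocol and 100 were in a tube according to another. Per the submitters' processing notes, STAR and mm10 were used. The labels name no version, counting tool, annotation, strand setting or barcode collapse. Values of overlapping or near-identical genes are therefore uncertain.

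From these counts, TMM factors and 6 group means were fitted with edgeR 4.0.16 in R 4.3.3 after filterByExpr (minimum count 10). Contrasts were tested with the quasi-likelihood test, adjusted by Benjamini-Hochberg over 1916 genes. Standard errors were derived from each log2 fold change and its F statistic, and 95% intervals from them. The marrow average is the mean of the mature and immature groups on the log2 scale. Every one of the 9 genes is named in the text, and from the other lists up to 4 genes that passed a comparison, by smallest p. Some genes that these rules would name are not reported here. Pearson r used log2 CPM (prior count 2). No replicate pair was identical, and the chi-square of counts per degree of freedom ran from 1.07 to 2.74 over the 18 pairs within groups. The steps were also run on simulated data in which every gene had the same spread between libraries. That does not show how they perform where genes differ in spread. Gene positions are from GENCODE M21, and promoter sequences from RefSeq, GRCm38.p6.

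Alternatives were DESeq2 size factors, other filters on low counts, the Wald test of DESeq2 1.42.0, fits of only the libraries in a contrast, a replicate block and leaving out each library. Fits without Rn45s and Rn4.5s (Rn45s held 4.79% to 16.1% of a library), without 2 mature libraries, and without the filter on the scaling of the filtered genes were chosen after seeing the data. Summed markers per library reached 33.7 CPM for B cells and plasma cells, 35.2 CPM for ILC3, 27.8 CPM for dendritic cells, 53.5 CPM for mast cells and basophils, 41.6 CPM for blood progenitors, 83.4 CPM for lung epithelium and endothelium, 17.6 CPM for NK cells and ILC1 and 52.8 CPM for T cells.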

Additional observations from a re-analysis of the deposited data

Results flagged for a closer look

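The CD45 effect on Ifngr1 differed between lung and marrow ILC2. CD45 KO against control was 1.12 ± 0.22 in lung and -0.50 ± 0.31 in the marrow average on the log2 scale. The difference of 1.62 ± 0.38 passed in edgeR's fit over all libraries (adjusted p = 0.0124). All 3 lung CD45 KO libraries were above all 3 lung controls, while marrow libraries of both genotypes overlapped. The difference missed the threshold without mature control replicate 1 (1.36, adjusted p = 0.087), the library with the highest Ifngr1 level of the marrow controls (224 CPM) and the highest sum of myeloid markers. The part of those markers in the result was not tested.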

How the results depend on the processing

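Among genes named as passing, 231 values in other settings and 272 with 1 library left out kept direction and call, while 11 and 16 kept direction and missed the threshold. These concern Ifngr1 (the lung minus marrow effect), Ifngr2, Irf2, Tgtp1 and Ptprc. Fits in which DESeq2 gave no adjusted p are not in these counts. Among them are those of Ifngr1 in lung and for the lung minus marrow effect (DESeq2 Wald test, unadjusted p = 0.0338 and 0.017). Among results that did not pass, the sign changed in 47 of 593 cases by less than 1 standard error. With 1 library left out it changed by more for Ifngr1 in mature CD45 KO against control (-0.99 to 0.07), in immature CD45 KO against control (-1.61 to 0.02), in mature against immature control (-0.62 to 0.39) and in the mature minus immature effect (-0.51 to 1.11), for Irf1 in mature (-0.22 to 0.33) and for Jak1 in lung (-0.33 to 0.16). Depth limits these values, with 1 to 20 counts of Ifngr1 in a marrow library.

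Counts of all genes that passed moved more. Without the filter on low counts 22 genes passed in lung, 9 for the lung minus marrow effect and 4 between mature and immature control, where many more genes were tested. That fit's own scaling shifted the median log2 fold change by 0.13 in mature CD45 KO against control, 0.11 in the marrow average and 0.13 for lung against marrow in control, where 493 were higher and 190 lower in place of 338 and 257. In the marrow average it gave 33 higher and 8 lower in place of 28 and 29. With DESeq2's Wald test 1 passed in mature, 10 in immature and 19 in the marrow average, and the Wald test called 31 higher and 5 lower for the lung minus marrow effect, against 16 and 8. DESeq2's size factors gave 20 and 6 for that effect. With only the libraries in the contrast 0 passed in mature and 3 between the control stages. That setting could not be applied to the lung minus marrow effect, which uses all libraries. With 1 library left out the counts ran from 3 to 12 in mature, 12 to 26 in immature, 29 to 42 in lung, 36 to 91 in the marrow average and 9 to 35 for the lung minus marrow effect. The cause of these shifts was not tested.

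Samples with the same replicate number did not deviate together (45 pairs, correlations of -0.0888 to 0.0755, 0 over 0.1). In libraries this shallow, counting error can hide a shared deviation, so whether the numbers pair the samples is not known. With the replicate number as a block, 6, 30 and 44 genes passed in mature, immature and lung, and Ifngr1 stayed at 1.62 for the lung minus marrow effect (adjusted p = 0.0117).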

Other observations

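The 24 tested interferon-induced genes had lung CD45 KO differences in both directions, 16 of them above 0. None passed with edgeR, DESeq2 called B2m, and at an unadjusted p under 0.05 there were 2 higher (Psme1 and B2m) and 1 lower (Irgm1). These genes were chosen after their values were seen. Psme1, a proteasome activator subunit, was at 202 CPM in lung control and 340 CPM in lung CD45 KO without overlap, as for 12.3% of genes tested (0.74 ± 0.26, edgeR adjusted p = 0.116). B2m was at 3920 and 5040 CPM (0.36 ± 0.12, adjusted p = 0.101). Irgm1, an immunity-related GTPase gene, was at 22.6 and 4.64 CPM, from 7 and 1 counts in all (-2.23 ± 1.12, adjusted p = 0.343). Trim30a was at 120 and 72 CPM, lower without overlap as for 7.41% of genes tested (-0.75 ± 0.40, adjusted p = 0.374), while Gbp4 (0.71 ± 0.48) and Nlrc5 (0.71 ± 0.70) were higher without overlap. Stat3, Stat4 and Stat6 had log2 fold changes of 0.47 ± 0.32, 0.60 ± 0.48 and 0.01 ± 0.33 in lung and 0.18 ± 0.23, -0.56 ± 0.36 and -0.16 ± 0.26 in the marrow average for CD45 KO against control, none of which passed.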
